A study of Mus musculus with 14 samples.

Results

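The 11 RPM tumours among the 14 lung tumours of the study were compared with each other, without any contrast with the other model. RPM mice carry Rb1 fl/fl, Trp53 fl/fl and a Myc T58A allele behind a lox-stop-lox cassette (LSL). In all 11 tumours the alleles were recombined by Cre that an adenovirus carried under the Cgrp promoter, so that neuroendocrine cells are its main target. By the source names, 9 tumours came from LSL/LSL mice and 2 from LSL/+ mice (tumours 2 and 4). Tumours are numbered by replicate, in the order of the sample list. The tumours were untreated and were cut from the lung by eye, so surrounding tissue could be included. RNA came from fresh or flash frozen tissue, which is not given per tumour, and neither are age, sex or strain. The labels do not say that the tumours came from separate mice, so p-values measure the spread between these samples.

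Small cell lung cancer is a neuroendocrine tumour. Its cells usually make chromogranins, synaptophysin and other parts of the secretory and synaptic machinery under transcription factors such as Insm1 and Neurod1. Cells of this cancer can also lose the neuroendocrine state, and such cells are known for Notch targets such as Hes1 and for the Hippo effector Yap1. A piece of tumour cut from the lung also holds fibroblasts, blood vessels, immune cells and lung epithelium. In bulk RNA, fewer cells of a type and less RNA per cell cannot be told apart.

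Depth was even. An estimated 17350000 to 19800000 reads were mapped per tumour, and 12994 to 14129 genes reached 1 FPKM (fragments per kilobase of transcript, scaled to the size of the library). For a gene of 2 kb, 3 such reads give 0.0758 to 0.0865 FPKM, a limit that covers counting error only. The targeted genes were measured over their whole length, which does not show whether their floxed part is missing. Trp53 stood at 7.93 to 16.1 FPKM in 10 tumours and at 78.0 in tumour 9, and Rb1 at 5.19 to 22.6. Myc, whose transgenic and endogenous transcripts are summed, ranged from 48.4 FPKM in tumour 2 to 384 in tumour 7, with a median of 224.

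The titles hold numbers that fall into 3 separate ranges, a low one (tumours 1 to 4), a middle one (tumours 5 to 8) and a high one (tumours 9 to 11). Tumours 6 and 7 share a title number, and so do tumours 10 and 11. The labels do not say whether the number stands for a mouse or the range for a batch. Across genes, which are not independent replicates, tumours 10 and 11 had the highest correlation of all 55 pairs (r = 0.968), while tumours 6 and 7 ranked 5 of 55 (r = 0.927), and the pairs ranged from 0.814 to 0.968. Xist, the RNA of the inactive X chromosome, stood at 43.3 to 242 FPKM in 8 tumours and at 0.22, 0.27 and 0.03 in tumours 4, 10 and 11. In these 3 tumours the Y-linked gene Eif2s3y was at 24.9, 15.4 and 18.3 FPKM, against at most 0.11 in the others. The members of each pair were thus on the same side in these sex-linked genes.

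Of the genes in the table, 9804 had a mean of at least 5 FPKM over the 11 tumours and were ranked by the SD of log2(FPKM + 1). The median SD was 0.35 log2 units, with quartiles of 0.25 and 0.49. An SD of at least 1 was reached by 487 genes (4.97%) and an SD of at least 2 by 103. At the edge of the ranking, Tigd3 at a mean of 5 FPKM was inside (SD 0.34) and Depdc7 at 4.9991 was outside (SD 0.74).

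Most genes at the head of this ranking were genes with a near-identical copy elsewhere in the genome, many of them processed pseudogenes. A copy was counted when a transcript of another locus matched at 95% identity over at least 50% of the shorter transcript and reached 1 FPKM in any tumour. Such copies existed for 66 of the 100 genes of largest SD and for 10.3% of all ranked genes. The median SD of those 66 was 2.63, and that of the sum of each gene and its copies was 0.35. Of the 66 sums, 4 had an SD of at least 1.

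Ftl1, which encodes the light chain of the iron store ferritin (chromosome 7, 45457944 to 45459884, minus strand, GRCm38), is shown with copies because its value moved between loci from tumour to tumour. The following 120 coding bases (385 to 504 of the coding sequence, exon 4 of Ftl1) are those of GENCODE transcripts on GRCm38, at chr7:45458155-45458274 (minus strand), chr13:74406988-74407107 (plus) and chr4:125504672-125504791 (plus), and capitals mark bases that differ from Ftl1.
Ftl1: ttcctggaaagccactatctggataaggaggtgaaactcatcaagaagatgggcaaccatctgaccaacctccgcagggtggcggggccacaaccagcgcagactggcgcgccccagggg
Ftl1-ps1: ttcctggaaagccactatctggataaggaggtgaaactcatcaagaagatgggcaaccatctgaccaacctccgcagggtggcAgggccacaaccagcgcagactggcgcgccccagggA
Ftl2-ps: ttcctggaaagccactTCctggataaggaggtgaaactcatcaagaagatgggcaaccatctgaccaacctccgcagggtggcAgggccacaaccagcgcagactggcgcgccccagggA
Over the 549 coding bases, Ftl1-ps1 differed from Ftl1 at 2 and Ftl2-ps at 7. Of the 500 stretches of 50 bases in the Ftl1 coding sequence, 83.6% were also found in Ftl1-ps1 and 54.6% in Ftl2-ps.

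Ftl1 stood at 5.32 to 9.92 FPKM in tumours 3, 4 and 9, at 311 to 406 in tumours 1, 10 and 11, and at 888 to 1127 in the other 5. Ftl1-ps1, in contrast, stood at 498 to 805 FPKM in tumours 1, 3, 4, 9, 10 and 11 and at most at 0.7 in the other 5. The sum of Ftl1 and its 6 copies was 1052 ± 118.8 FPKM (SD, n = 11), and the SD fell from 3.09 for Ftl1 to 0.16 for the sum. Rps13, a protein of the small ribosomal subunit, followed the same pattern. It was listed at 0 in tumours 1 and 5 and at 154 to 1264 FPKM in the others, and its coding sequence is identical to that of Rps13-ps2. With its 3 copies Rps13 summed to 1757 ± 599 FPKM (SD, n = 11), and the SD fell from 3.51 to 0.46. Such genes were kept in the ranking, the scores and the regressions, and were left out of the runs of neighbouring genes, the groups of co-varying genes and the principal components.

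**Figure D1:**
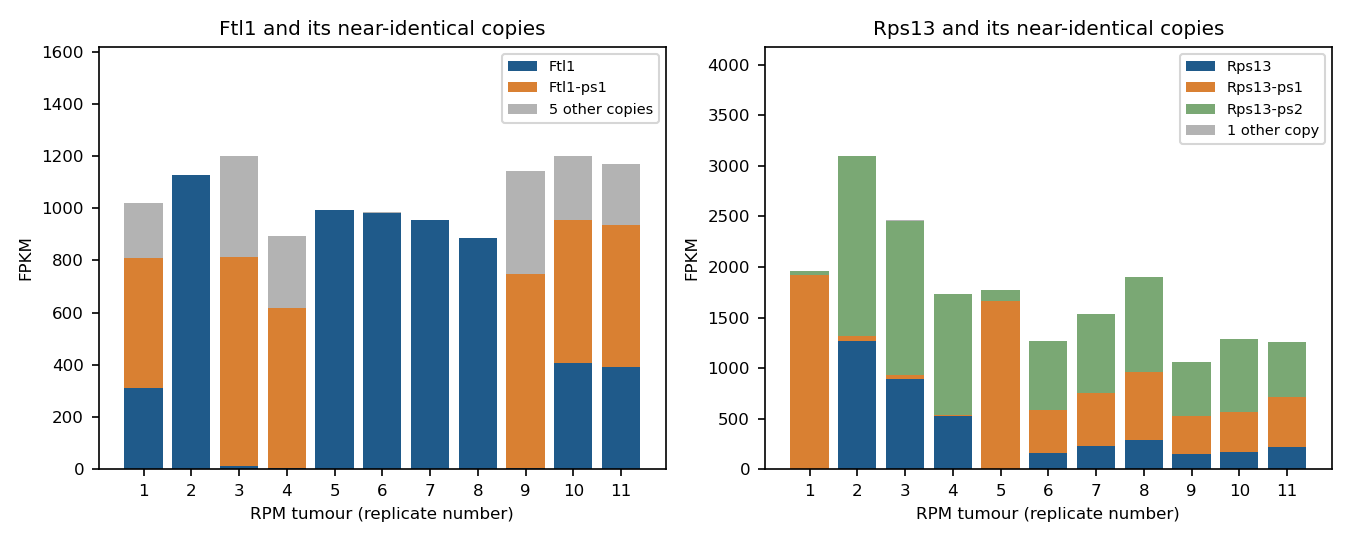
FPKM (bars stacked from 0) of Ftl1 (left) and Rps13 (right) with their near-identical copies in each of the 11 RPM tumours. The colours change from tumour to tumour while the height of the Ftl1 stack varies little (1052 ± 118.8 FPKM, SD).

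Genes of lung epithelium varied most among the named genes. Of the 25 named genes of largest SD, 9 belong to the list of lung epithelial markers. Scgb1a1, the secretoglobin of club cells (chromosome 19, 9083636 to 9087958), had the largest SD among the genes with a symbol outside the skipped classes (3.65). It ranged from 0.36 FPKM in tumour 6 to 1352 in tumour 5, with a median of 155, and stood at 1327 in tumour 11 and at 0.60 in tumour 4. Sftpc, the surfactant protein of alveolar type 2 cells, ranged from 1.62 FPKM in tumour 6 to 616 in tumour 11, with a median of 87.3. Sftpb, another surfactant protein, was at 61.0 to 125 FPKM in tumours 1, 5, 9, 10 and 11, and at 0.07 to 11.8 in the other 6. Ager, a marker of alveolar type 1 cells, followed the same split, at 49.8 to 121 FPKM in those 5 tumours and at 0.53 to 19.2 in the others. Of the 19 ranked members of this list, 16 had an SD of at least 1, against 4.97% of all ranked genes, and the median SD was 1.84. The 2 members of smallest SD were Abca3 (0.37), a lipid transporter of alveolar type 2 cells, and Rtkn2 (0.33).

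Airway secretory genes did not follow the alveolar ones in every tumour. Scgb3a1 was highest in tumour 3 (301 FPKM) and tumour 10 (208), and Bpifa1, a secreted protein of the airways, in the same tumours (287 in tumour 10 and 83.4 in tumour 3, against 0.05 to 11.9 in the others). Reg3g, an antibacterial lectin, and Ltf, lactoferrin, were also highest in tumours 10 and 3, at 139 and 126 FPKM for Reg3g and at 103 and 78.2 for Ltf. Ltf is also a member of the immune list, among its neutrophil markers, and so counts in the immune score below. In tumour 3 the alveolar genes were low, with Sftpb at 0.12 FPKM and Sftpc at 8.73.

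The other named genes of largest SD were of several kinds. Calcr, the calcitonin receptor, which is counted among the imprinted genes, ranged from 0 FPKM in tumour 9 to 158 in tumour 4, with a median of 38.9. Pnoc, the precursor of the neuropeptide nociceptin, ranged from 0.40 in tumour 9 to 211 in tumour 5. Stmn2, a tubulin-binding protein of growing neurites, ranged from 0.91 in tumour 9 to 429 in tumour 6, with a median of 23.1. Nppa, a hormone of the heart atrium, stood at 110 FPKM in tumour 3 and at most at 13.4 elsewhere. Chil1, Lcn2, Retnla, Cbr2, a carbonyl reductase of the lung, and Spp1, osteopontin, were each higher in all of tumours 1, 5, 9, 10 and 11 than in any other tumour, by little for Retnla (6.83 FPKM in tumour 1 and 6.68 in tumour 8) and Cbr2 (49.5 in tumour 9 and 49.4 in tumour 3). Mir7658 was at 9.45 to 24.3 FPKM in tumours 2, 3, 4 and 8 and listed at 0 in the other 7. It is very short (chromosome 4, 156230059 to 156230115), so very few reads can give such values. The limit given above for a gene of 2 kb does not hold for it, and its differences may be counting error.

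Each programme was summarised in each tumour by a score, the mean log2(FPKM + 1) of its members with a mean of at least 1 FPKM. The lung epithelial score varied most, from 0.88 in tumour 6 to 4.66 in tumour 10 (SD 1.51). The neuronal score ranged from 3.13 in tumour 5 to 5.64 in tumour 6 (SD 0.66) and the neuroendocrine score from 3.48 in tumour 5 to 5.34 in tumours 4 and 11 (SD 0.58). The immune score ranged from 2.68 in tumour 4 to 4.16 in tumour 10 (SD 0.49) and the stromal score from 3.38 in tumour 4 to 4.67 in tumour 5 (SD 0.42). The imprinted score varied least, from 3.57 in tumour 9 to 4.49 in tumour 6 (SD 0.26).

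**Figure D2:**
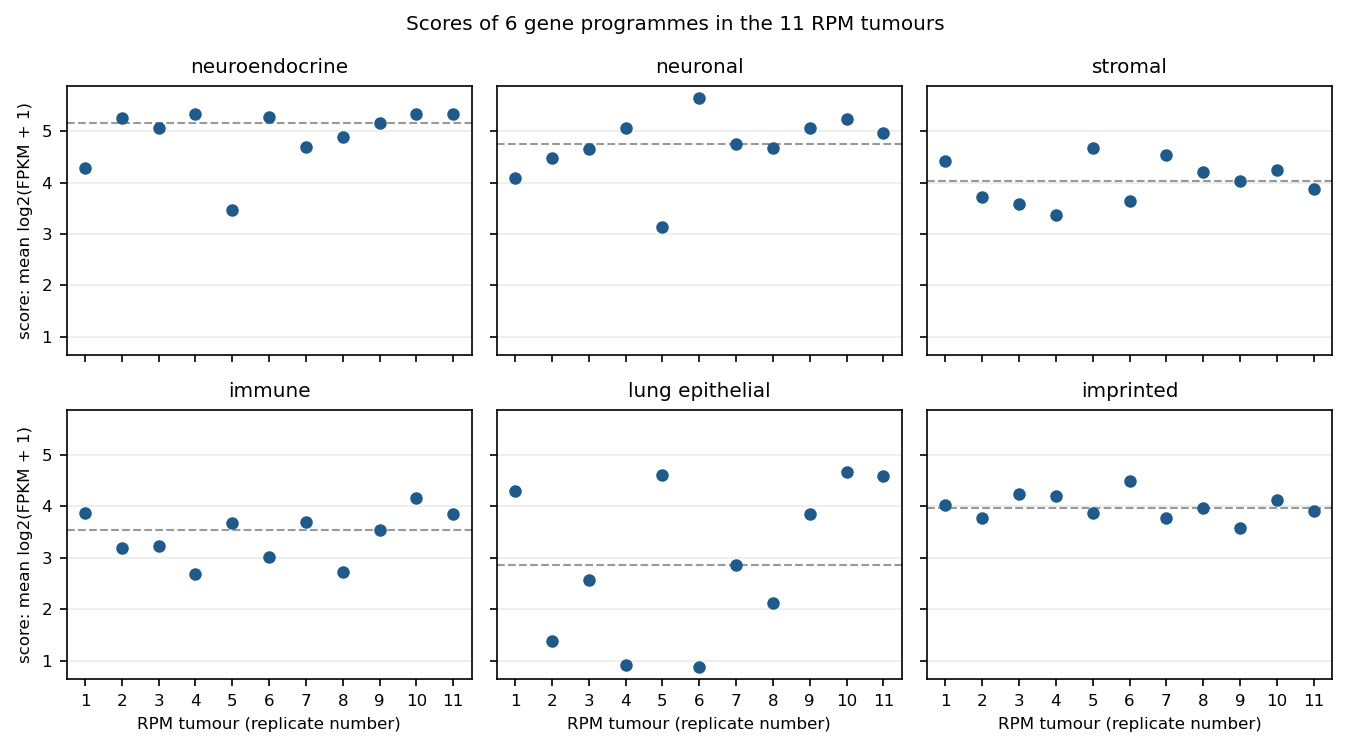
Score of each of 6 gene programmes (mean log2(FPKM + 1) of its members, y axis) in each RPM tumour (x axis, 1 point per tumour, dashed line at the median). Tumour 5 is lowest in the neuroendocrine and neuronal panels (3.48 and 3.13), and the lung epithelial scores spread widest (0.88 to 4.66).

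Neuroendocrine genes were expressed in all 11 tumours, and tumour 5 had the lowest level of most. Of the 26 ranked members, 21 were lowest in tumour 5, and none was highest there. The share of all ranked genes that were lowest or highest in a given tumour is not given. Such counts, here and for the lists below, therefore only describe the lists. Chga, which encodes chromogranin A of secretory granules (chromosome 12, 102554969 to 102565028), was at 15.5 FPKM in tumour 5, at 32.7 in tumour 1, and at 40.5 to 106 in the other 9. Syp, synaptophysin of synaptic vesicles, was at 12.3 FPKM in tumour 5 and at 36.1 to 117 in the others. Uchl1, a neuronal deubiquitinase, was at 123.6 in tumour 5 and at 407 to 876 in the others. The member of largest SD, Scg2 (1.55), a secretogranin, ranged from 0.82 FPKM in tumour 5 and 2.24 in tumour 9 to 70.1 in tumour 4. Bex1 varied least (0.35), from 146 FPKM in tumour 5 to 380.2 in tumour 2.

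The transcription factor Neurod1 did not follow the score in every tumour. Neurod1 was highest in tumour 6 (31.7 FPKM), at 5.06 to 11.2 in tumours 1, 2, 3, 4, 10 and 11, at 1.63 and 2.20 in tumours 7 and 8, and at 0.34 and 0.02 in tumours 5 and 9. Tumour 9 thus had the lowest Neurod1 beside a neuroendocrine score of 5.16. Insm1, a zinc finger factor of neuroendocrine cells, ranged from 12.7 FPKM in tumour 5 to 74.2 in tumour 10.

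Neuronal genes moved with the neuroendocrine ones. The scores correlated at r = 0.897 over the 11 tumours (permutation adjusted p = 0.00713 over 15 pairs of programmes). Spearman's rho was 0.70, which did not pass (permutation adjusted p = 0.103). The relation leaned on tumour 5. Without it r was 0.714 (permutation adjusted p = 0.113), and without tumours 5 and 1, the farthest from the median, r was 0.457 (exact permutation adjusted p = 0.665). With scores centred within each title range, r was 0.929 (exact permutation within ranges, adjusted p = 0.0304). The ranges hold 3 or 4 tumours each, too few for an r within a range. Of the 43 ranked neuronal members, 40 were lowest in tumour 5 and 23 were highest in tumour 6. In tumour 6 the tubulin gene Tubb3 was at 333 FPKM, against 23.5 in tumour 5 and 48.2 to 143 in the others, and Dcx, doublecortin of migrating neurons, at 56.1, against 2.73 in tumour 5. Camkv was an exception, lowest in tumour 9 (10.06 FPKM) and highest in tumour 4 (75.2).

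The stromal score moved opposite to the neuroendocrine one. The scores correlated at r = -0.751 (permutation adjusted p = 0.0112), with a rho of -0.673 (permutation adjusted p = 0.103). Without tumour 5 r was -0.687 (permutation adjusted p = 0.113), without tumours 5 and 1 -0.639, and within title ranges -0.819 (exact permutation adjusted p = 0.0304). The pair also did not pass among the 9 LSL/LSL tumours alone (r = -0.738, permutation adjusted p = 0.0796). The mean pairwise r between stromal members was 0.297, above the 0.0285 over all ranked genes and below the 0.656 between neuronal members. Not all members followed the neuroendocrine score. Fbn1, fibrillin of microfibrils, and Pdgfrb, a growth factor receptor of pericytes and fibroblasts, had an r with it of -0.765 and -0.747, while 8 of the 9 collagen genes lay between -0.175 and 0.106 and Col5a1 at -0.619. Eln, elastin, ranged from 4.54 FPKM in tumour 4 to 136 in tumour 9, and Mfap4, a protein of elastic fibres, from 0.66 in tumour 4 to 48.5 in tumour 5. Col1a1 ranged from 17.3 FPKM in tumour 3 to 90.8 in tumour 7 and Col6a3 from 5.95 to 15.4 (SD 0.36). Of the 25 ranked members, 11 were lowest in tumour 3 and 8 highest in tumour 5.

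**Figure D3:**
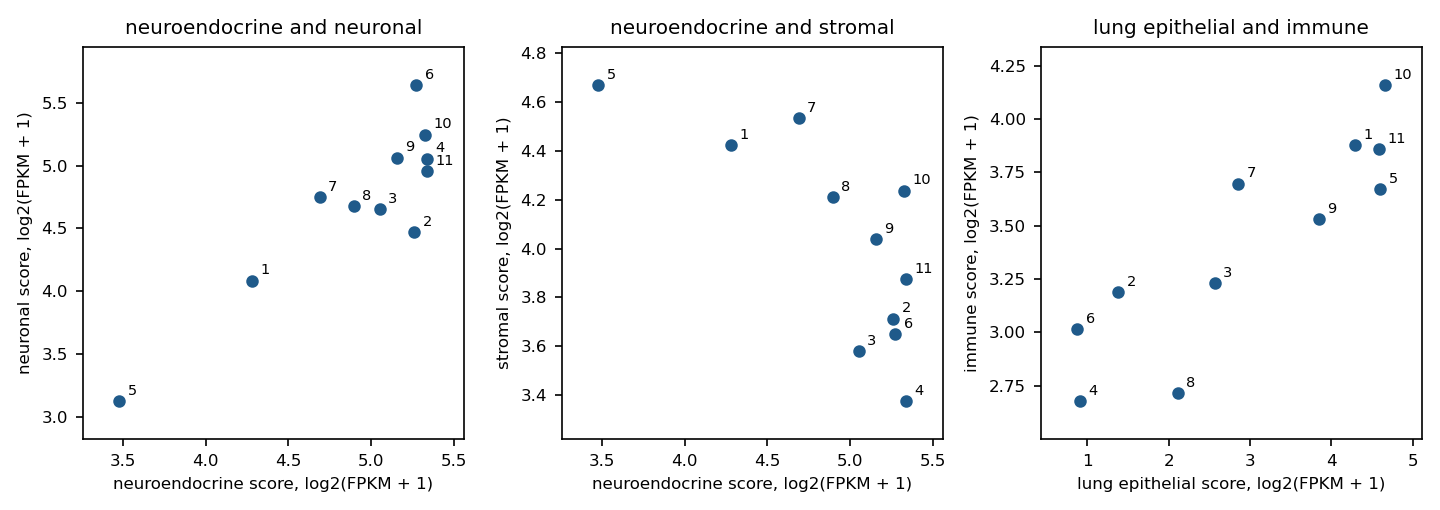
Neuroendocrine against neuronal scores (left), neuroendocrine against stromal scores (middle) and lung epithelial against immune scores (right), with 1 numbered point per RPM tumour on axes of mean log2(FPKM + 1). Tumour 5 lies apart in the left and middle panels, and in the right panel the points spread along the line without it (r = 0.897, -0.751 and 0.876).

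The immune score moved with the lung epithelial one. The scores correlated at r = 0.876 (permutation adjusted p = 0.00713), with a rho of 0.873 (permutation adjusted p = 0.0135). Leaving out each tumour in turn gave 0.841 to 0.910, leaving out tumours 4 and 8 gave 0.890 (exact permutation adjusted p = 0.0175), and centring within title ranges gave 0.816 (exact permutation adjusted p = 0.0347). Chil3, a chitinase-like protein of lung macrophages, was highest in tumours 1 and 5 (21.3 and 14.9 FPKM) and at most 1.27 in tumours 2, 3, 4, 6 and 8. Cd74, the invariant chain of class II antigen presentation, ranged from 19.9 in tumour 4 to 236 and 248 in tumours 10 and 11. The class II gene H2-Eb1 was lowest in tumour 9 (0.70 FPKM) and at 3.69 to 40.9 in the others. The broad macrophage marker Cd68 varied little, from 15.8 to 32.1 FPKM (SD 0.37). Only 3 of 13 T and NK cell markers reached a mean of 1 FPKM, and Cd3e, part of the T cell receptor complex, stood at 0.04 to 1.10 FPKM. The lymphoid markers did not follow the whole score. The mean over the B cell markers was highest in tumour 6 (3.24, against 0.70 to 2.44 in the others), where the lung epithelial score was lowest. The T and NK cell markers were as high in tumour 6 (2.30) as in tumour 10 (2.31), and these lymphoid scores rest on 3 genes each.

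The other 12 pairs of programmes did not pass. The largest of these was stromal with lung epithelial (r = 0.672, permutation adjusted p = 0.104). Within title ranges that r was 0.882, and neuroendocrine with lung epithelial came to -0.919 (both exact permutation adjusted p = 0.0304), against -0.431 over all tumours (permutation adjusted p = 0.339). Tumours 10 and 11 had lung epithelial scores of 4.66 and 4.58 beside neuroendocrine scores of 5.33 and 5.34, while tumour 5 had 4.60 beside 3.48. High lung epithelial scores thus stood beside both the lowest and the highest neuroendocrine scores.

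Imprinted genes, which are expressed from the copy of 1 parent, varied strongly but, as a list, not together. Of 27 ranked members, 10 had an SD of at least 1. The mean pairwise r between members was 0.0518, close to the 0.0285 over all ranked genes. Some members did share a group of co-varying genes (below), Calcr with Peg10, Magel2 with Nnat, and Dlk1 with Cdkn1c. Mest fell into a group without another member of the list. The imprinted score correlated with no other programme past the threshold, and the largest of its 5 values was -0.458, with the stromal score (permutation adjusted p = 0.338). Peg10, a gene derived from a retrotransposon, ranged from 12.05 FPKM in tumour 5 to 269.8 in tumour 4. H19, a noncoding RNA, ranged from 2.21 in tumour 2 to 92.5 in tumour 8, and Dlk1, a Notch ligand homologue, from 0.60 in tumour 9 to 24.2 in tumour 5. Nnat (1941 FPKM), Ndn (468) and Rian (94.7) were highest in tumour 6, and Magel2, a neighbour of Ndn, in tumours 3 and 6 (38.8 and 35.2, against 0.97 to 7.19 elsewhere). The steadiest members were Impact (SD 0.29) and H13 (0.24).

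Further lists and Myc were correlated with the programmes in a family of 72 pairs. Genes of non-neuroendocrine SCLC correlated with the neuroendocrine score at r = -0.797 and with the stromal score at 0.745 (permutation adjusted p = 0.0353 and 0.0415). Without tumours 5 and 6 these were -0.509 and 0.606, and neither passed (exact permutation adjusted p = 0.462 and 0.322). The list includes Ccn1 of the chromosome 3 run described below. It was at 313 FPKM in tumour 5 and at 5.26 to 28.5 in the others. Ribosome biogenesis genes correlated with the neuroendocrine score at -0.784 and with the stromal score at 0.822 (permutation adjusted p = 0.0116 and 0.0245). Their score was highest in tumours 1 and 5 (6.35 and 6.29) and spanned 5.69 to 6.35, and without both tumours r was -0.727 and 0.724 (exact permutation adjusted p = 0.167 for both). Immediate early genes, which stress and tissue handling can induce, correlated with the neuronal score at -0.754 (permutation adjusted p = 0.0460, and -0.304 without tumours 5 and 6).

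With the lung epithelial score moved the lists of epithelial identity (r = 0.963), endothelial cells (0.893), interferon response (0.889), MHC class I (0.865) and non-neuroendocrine genes (0.772), with permutation adjusted p values from 0.00144 to 0.0245. The same lists except the last also correlated with the immune score, at 0.933 for MHC class I, 0.895 for interferon response, 0.843 for epithelial identity and 0.760 for endothelial cells (permutation adjusted p from 0.0036 to 0.0460). Without the 2 tumours farthest from the median of each list these 9 correlations were 0.723 to 0.977, and 4 of them passed, those of epithelial identity with both scores, endothelial cells with lung epithelial and MHC class I with immune scores. The simple-epithelium keratin gene Krt8 stood at 12.1 to 45.6 FPKM in tumours 1, 5, 9, 10 and 11 and at 0.75 to 7.58 in the other 6. B2m, the light chain of class I molecules, ranged from 74.8 FPKM in tumour 8 to 275 in tumour 10. Neither Myc nor cell cycle genes passed with any programme. Cell cycle genes were steady, with a median SD of 0.28 over 28 members and none at 1 or more.

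Across the transcriptome, genes outside the neuroendocrine list were regressed on its score with limma. Of 9778 genes tested, 288 were higher (2.95%) and 152 lower (1.55%) with the score (adjusted p under 0.05). The balance depended on the setting, with 331 higher and 328 lower at a mean of at least 1 FPKM, and 322 and 295 with the title range as a term. Without genes that have a near-identical copy, 306 and 161 of 8765 were called. Without tumour 5, limma called 3 genes higher, Btbd17, Kcnh2 and Olfm1, and 0 lower, with 556 and 470 at an unadjusted p under 0.05. The calls over 11 tumours therefore rest on the distance of tumour 5 from the rest. Of the 43 neuronal members tested (46 in the list), 24 were called higher and 0 lower, and their median slope was 1.10, against -0.00389 over all genes. They included Gng3, a G protein subunit of neurons (slope 1.86 ± 0.18 log2 units per unit of score, SE, n = 11, limma adjusted p = 0.00206), Stmn4, which binds tubulin, and Rab3a and Syn1 of synaptic vesicles. None of the 25 stromal members tested was called. Of 19 non-neuroendocrine members, 4 were called lower and 0 higher, namely Yap1, Hes1, Emp1 and Ifitm3. Yap1 and Hes1 reached the mean of 5 FPKM needed for the test only through tumour 5, with means of 3.63 and 4.33 FPKM over the other 10, so their calls give no support. The same held for 19 of the 152 genes called lower and 0 of the 288 called higher. Of 27 imprinted members Snrpn and Usp29 were called higher, and of 10 proneural factors Myt1.

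Outside the lists, the genes of smallest p that were higher with the neuroendocrine score included Asphd1, Camk2n2, an inhibitor of CaM kinase, Foxa2, a transcription factor of lung and foregut, and Ap3b2, a neuronal vesicle adaptor. Foxa2 was at 8.32 FPKM in tumour 5, 18.1 in tumour 1 and 25.0 to 47.2 in the others (slope 1.12 ± 0.13, SE, n = 11, limma adjusted p = 0.00206). Those lower with it were Tead2, a DNA-binding partner of Yap1, Fstl1, Gas1, Cldn10 and Rcn3, of which Gas1 and Cldn10 entered the test only through tumour 5 (means of 2.43 and 3.09 FPKM over the other 10). Tead2 was at 48.0 FPKM in tumour 5, 15.7 in tumour 7, 14.0 in tumour 1 and 2.35 to 10.2 in the others (slope -2.02 ± 0.24, SE, n = 11, limma adjusted p = 0.00206). Yap1 was likewise at 29.7 FPKM in tumour 5, 8.32 in tumour 1, 7.14 in tumour 7 and 1.08 to 4.84 in the others, so tumour 5 lay above all others for both. Tumour 5 was also high in lung epithelial (4.60) and stromal (4.67) scores, and the part of such cells in its Yap1 and Tead2 levels was not tested.

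With the stromal score limma called 1 gene of 9779 higher (0.0102%), Wls, which carries Wnt proteins to the cell surface (2.82 FPKM in tumour 4 to 30.2 in tumour 5, adjusted p = 0.00522). It called 0 lower, with 827 and 618 at an unadjusted p under 0.05. With the immune score 19 of 9783 were higher (0.194%; 26 without genes that have a copy) and 0 lower, with 402 and 171 at an unadjusted p under 0.05. They included Ly6c1 and Ly6a, surface proteins that mark endothelial and other cells in mice, and Mal2, Lgals3bp and AW112010. Ly6c1 ranged from 2.80 FPKM in tumour 4 to 60.7 in tumour 1 (slope 2.33 ± 0.31, SE, n = 11, limma adjusted p = 0.0247). Among list members Krt8, Krt18, Krt19, H2-K1, B2m and Sftpd were called. Without tumour 1, 6, 8 or 11 limma called 0 genes higher with the immune score, with 290 to 507 at an unadjusted p under 0.05. Limma also called 0 with the title range as a term, with title pairs averaged and among LSL/LSL tumours alone, with 515, 316 and 348 at an unadjusted p under 0.05. For the stromal score the call of Wls was likewise lost with the range as a term, among LSL/LSL tumours alone, with z-scores, and without tumour 5 or 7.

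Tumour 5 also stood apart by the position of its high genes in the genome. Of the genes at least 2 log2 units above the next tumour, 24 were highest in tumour 5, against at most 4 in any other. Of the 24, 15 lay in 1 stretch of chromosome 3. When 8536 ranked protein-coding genes without a near-identical copy were taken in genome order, 18 neighbours in a row, from Znhit6 to Zzz3 (chr3:145576205-152462826, 6.89 Mb, GRCm38), were each at least 1 log2 unit above the median of the 11 tumours in tumour 5. The next longest run in any tumour, above or below the median, was 4 genes. The 18 genes were unevenly spaced. Znhit6 to Ttll7 lay at 145576205 to 146984009 and Dnajb4 to Zzz3 at 152178511 to 152462826, with only Adgrl2 (148815583 to 148990555) between. This stretch was found in these data, so it gets no test.

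All 18 genes were higher in tumour 5 than in each of the other 10 tumours. The ratio of tumour 5 to the median of the others ranged from 2.88 to 20.9, with a median of 9.24. Gng5, a G protein subunit, was at 1538 FPKM in tumour 5 and at 97.0 to 216 in the others. Bcl10, a signalling adaptor of lymphocytes and epithelia, was at 147 against 9.62 to 19.4, and Zzz3, part of a histone acetyltransferase complex, at 237 against 8.6 to 29.8. Ccn1, a matrix protein known as a target of YAP, had the highest ratio, at 313 FPKM against 5.26 to 28.5. Its relative Ccn2, on chromosome 10 and also known as a YAP target, was at 47.9 in tumour 5 and at 16.9 to 92.9 in the others. The smallest ratios were those of Fubp1 (304 FPKM against 59.3 to 117) and Prkacb (179 against 41.0 to 114.8).

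The step at both ends was sharp. The 4 genes before Znhit6 and the 4 after Zzz3 had ratios of 0.541 to 1.41, and the nearest were Odf2l (25.6 FPKM in tumour 5 and 19.8 to 37.7 in the others) and Pigk (14.6 against 7.85 to 14.2). The stretch holds 33 protein-coding genes in all. Of the 15 with a mean under 5 FPKM, 11 reached 1 FPKM in any tumour, and 10 of these were highest in tumour 5. Of the 152 genes called lower with the neuroendocrine score, 11 lay in this run, and their calls rest on tumour 5. DNA copy number was not measured, and whether it differs over this stretch was not tested.

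**Figure D4:**
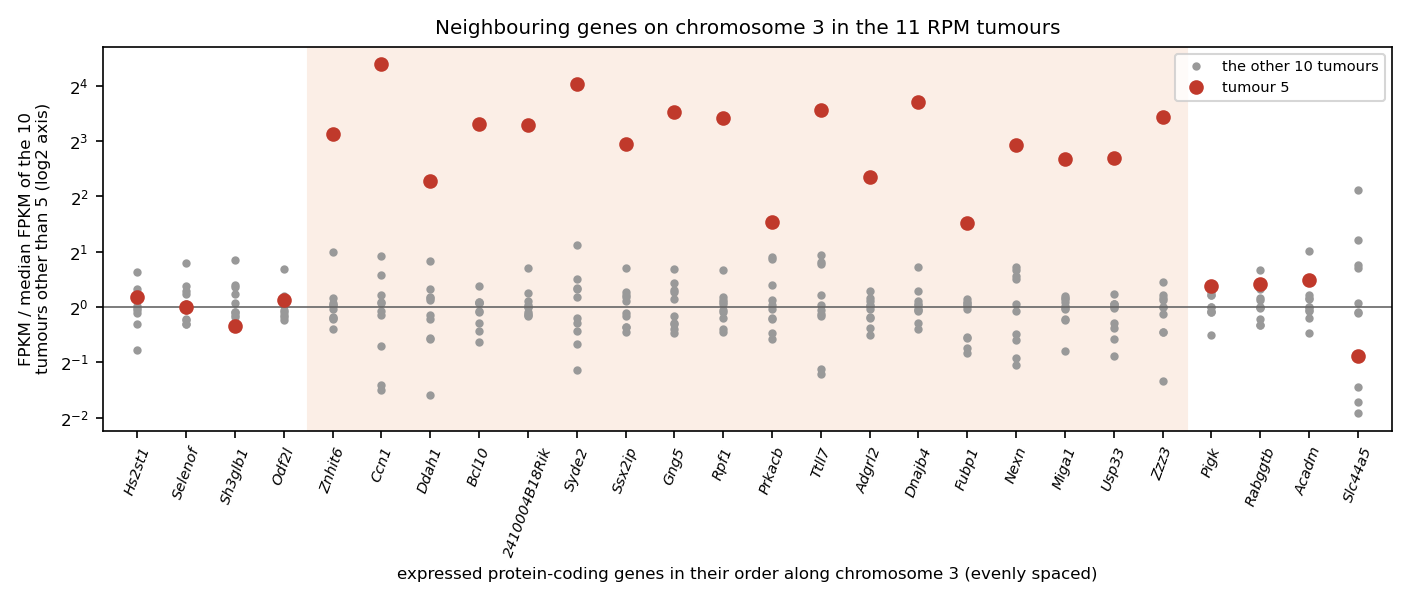
FPKM of each gene divided by its median in the 10 tumours other than tumour 5 (y axis, log2 scale), for 26 expressed protein-coding genes of chromosome 3 in genome order (x axis, evenly spaced); red points are tumour 5, grey points the other 10, and the shaded 18 genes form the run. Tumour 5 lies above all others for all 18 genes (ratios of 2.88 to 20.9) and near 1 on both sides (0.541 to 1.41).

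Grouping the 200 most variable protein-coding genes without copies by correlation gave 8 groups of at least 7 genes, which describe the variation without the lists. The largest, 65 genes led by Scgb1a1, Sftpb and Sftpc, held 13 lung epithelial and 8 epithelial identity genes and was high in tumours 1, 5, 9, 10 and 11. A group of 27, led by Cnmd, Cldn10, Fbp2 and Gas1, was high in tumour 5 (mean log2 level 6.11, against 2.15 to 3.51 in the others). It held Yap1, Tead2, Smo, the signal transducer of the Hedgehog pathway, and 7 genes of the chromosome 3 run. Of its members, Yap1, Gas1 and Cldn10 passed the mean of 5 FPKM only through tumour 5 (3.63, 2.43 and 3.09 FPKM without it). So did Fbp2, at 50.2 FPKM in tumour 5 and at most 1.56 in the others. The high level of this group in tumour 5 was thus in part fixed by that filter. A group of 25 with Calcr, Scg2, Peg10 and Neurod1 was highest in tumour 4 and lowest in tumour 5. A group of 24 with Slc6a5 and Dcx was high in tumours 6, 9, 10 and 11. A group of 8 with Stmn2, Nhlh2, Magel2 and Nnat was high in tumours 6 and 3. The airway genes Scgb3a1, Bpifa1 and Reg3g fell, with Ltf of the immune list, into another group of 7, high in tumours 10 and 3.

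A group of 17 genes held 7 markers of heart muscle. Myl7, a myosin light chain of the atrium, was at 84.1 and 50.2 FPKM in tumours 2 and 3, at 22.4 in tumour 8 and at 1.13 to 9.44 in the others, and Tnnt2, cardiac troponin T, at 67.0, 43.7 and 17.8 against 0.74 to 12.1. In mice, heart muscle cells also line the large pulmonary veins. The score of fat cell markers, 3 of 8 of which had a mean of at least 1 FPKM, was high in the same tumours 2 and 3, with scores of 4.38 and 4.50 against 1.80 to 2.94. Their part in the other values of tumours 2 and 3 was not tested.

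**Figure D5:**
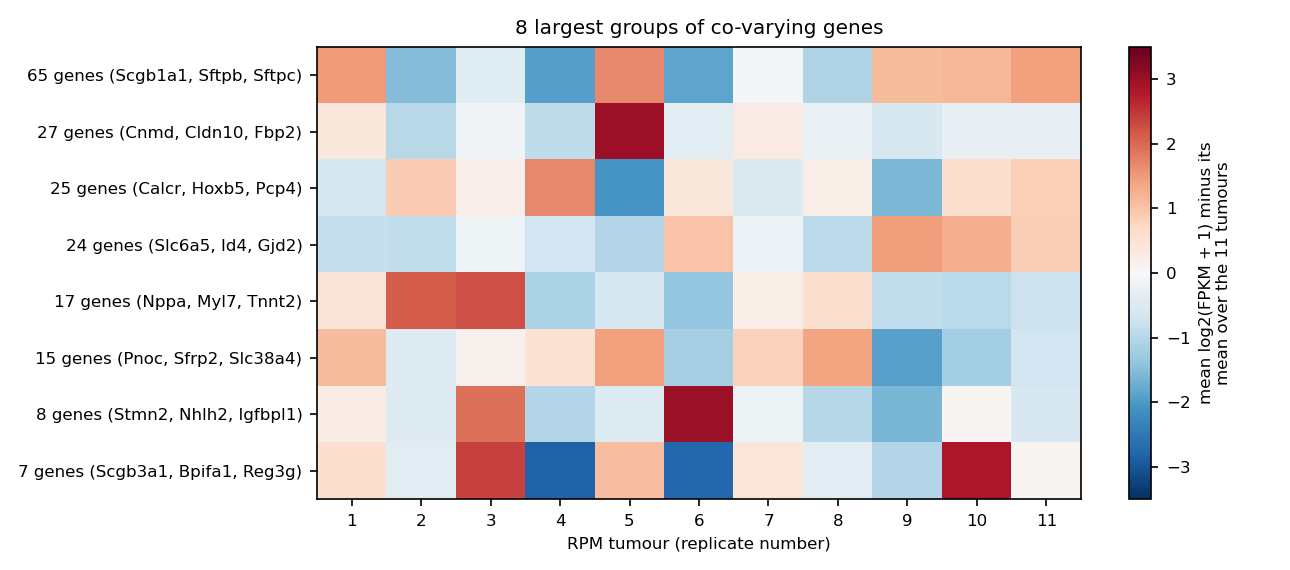
Mean log2(FPKM + 1) of the 8 largest groups among the 200 most variable genes without copies, minus each group's mean over the tumours (colour, red above and blue below), by RPM tumour (x axis); each row gives the number of genes and the first 3. The row of 65 genes led by Scgb1a1, Sftpb and Sftpc is red in tumours 1, 5, 9, 10 and 11, and the row of 27 genes is darkest in tumour 5.

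Principal components were taken over the 8480 genes without copies or skipped classes. The first held 32.3% of the variance and ran from tumour 2 (-50.6) to tumour 9 (34.5). Its scores were negative in tumours 1 to 5 and 8 and positive in the other 5, which include all 3 tumours of the high title range. Surfactant genes led its positive end, and heart muscle genes and small noncoding RNAs its negative end. The share of the 13 mitochondrial protein genes in the FPKM sum was 3.58 to 5.64% in tumours 1 to 4 and 2.55 to 3.77% in the others, and its part in this component was not tested. Tumour 2, at the negative end, had the largest FPKM sum (939971, median 714239) and the fewest genes at 1 FPKM (12994). It also had the smallest scaling factor by median of ratios (0.843, against 0.934 to 1.07 in the others). The components were taken on FPKM without that scaling, and the part of these differences was not tested. The second component held 25.6% and set tumour 5 (49.7) and tumour 1 (24.2) against tumour 6 (-29.8) and tumour 4 (-24.6). Surfactant and secretoglobin genes led its positive end, and Pcp4, Peg10, Gng3 and Scg2 its negative end.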

How the data were processed

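RNA of the 11 RPM tumours was measured by stranded, poly(A)-selected, single-end RNA-seq, per the labels' protocols. The authors deposited FPKM values per gene for 14 tumours, of which these 11 were used. Bowtie 1.0.1, RSEM 1.2.12 and the build mm10 are listed, with no role for any, per the submitters' processing notes. Which annotation release was used, with which strand setting, is not given in the sources used here. A reporter row at 0 in all tumours was left out, and symbols were found for 46005 of 46517 genes. Coordinates are GENCODE on GRCm38, the assembly of mm10.

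Depth was estimated from the smallest steps of low FPKM values, with reads assumed to be 50 bases long. Values were analysed as log2(FPKM + 1), which understates changes of low genes. Near-identical copies were found among GENCODE transcripts with BLAST+ 2.17.0. Correlations were tested by 100000 two-sided permutations in Python 3.11.15 (exact with 9 tumours, 362880 orders, or within title ranges, 3456 orders) with Benjamini-Hochberg adjustment over 15 or 72 pairs. Regressions used limma 3.58.1 in R 4.3.3 with a trend and Benjamini-Hochberg adjustment over all genes tested. The regression was tested on simulated data.

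Named genes were the 25 of largest SD with a symbol (immune receptor segments, pseudogenes and genes with only a clone or model name were passed over), the 4 members of largest and 2 of smallest SD in each programme, the 5 genes of smallest p per direction in each regression outside the lists, and Myc, Neurod1, Yap1 and Xist. Some genes that this rule names are not reported here. Further genes, the run on chromosome 3 and the groups of co-varying genes were chosen after their values were seen. The tumours compared and the gene lists were chosen with earlier results of these data known. Alternatives were a pseudocount of 0.1, median-of-ratios scaling, other filters, z-scores, averaged title pairs, only LSL/LSL tumours and each tumour left out. The title range as a term, the farthest pair of tumours left out, and copies left out or summed were chosen after seeing the data.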

Additional observations from a re-analysis of the deposited data

How the results depend on the processing

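Among the 15 correlations between programmes, 105 of 120 values under alternatives other than leaving out 1 tumour, and 162 of 165 with 1 tumour left out, kept their direction and side of the threshold. The pair of immune and lung epithelial scores passed in every alternative run. Neuroendocrine with stromal scores did not pass with z-scores (r = -0.681), with only LSL/LSL tumours (-0.738) or without tumours 5 and 1 (-0.639), and neuroendocrine with neuronal scores did not without tumours 5 and 1 (0.457). Stromal with lung epithelial scores passed with a pseudocount of 0.1 (0.755) and with the title range as a term (0.882), and neuronal with stromal scores passed with median-of-ratios scaling (-0.719). With the title range as a term the pairs neuroendocrine and lung epithelial (-0.919), neuronal and lung epithelial (-0.841) and stromal and immune (0.798) also passed. Without the 2 tumours farthest from the median, 5 weak correlations turned in sign, to 0.0756 (neuroendocrine and immune), 0.0369 (neuroendocrine and lung epithelial), 0.0609 (neuronal and immune), 0.117 (neuronal and lung epithelial) and 0.0891 (lung epithelial and imprinted). With each tumour left out, neuroendocrine with neuronal scores ranged from 0.714 to 0.944, neuroendocrine with stromal from -0.823 to -0.687 (both lost only without tumour 5), and stromal with immune from 0.457 to 0.764 (passing without tumour 8). Genes higher with the neuroendocrine score numbered 182 with title pairs averaged and 463 with only LSL/LSL tumours, and genes lower 99 with pairs averaged, 328 with a mean of at least 1 FPKM and 295 with the title range. Genes higher with the stromal score numbered 4 with pairs averaged and 0 with z-scores, only LSL/LSL tumours or the title range. Genes higher with the immune score numbered 6 with median-of-ratios scaling, 86 with a mean of at least 1 FPKM (and 2 lower), 4 with z-scores, and 0 with pairs averaged, only LSL/LSL tumours or the title range. With each tumour left out the counts ranged from 3 to 510 higher and 0 to 217 lower for the neuroendocrine score (3 and 0 without tumour 5, and 510 without tumour 2), from 0 to 2 higher and 0 to 1 lower for the stromal score, and from 0 to 18 higher for the immune score. The causes were not tested. Of the 100 genes of largest SD, 93 to 97 were shared with 1 tumour left out, and 38 when genes were summed with their copies. No paired analysis was possible because all tumours belong to 1 group. Depth limits values under about 0.0865 FPKM for a gene of 2 kb.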

Other observations

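Further tumours had genes of their own, named here after their values were seen. In tumour 9 Trp53 stood at 78.0 FPKM, against 7.93 to 16.1 in the others, and Cdkn1a, which encodes p21 and is a known p53 target, at 58.7, against 12.3 to 28.6. Mdm2, another p53 target, was also highest there, at 37.7 against 23.3 to 32.4, and Rb1 at 22.6 against 5.19 to 15.96. Cdkn2a, which encodes p16 and p19Arf, was lowest in tumour 9 (1.93 FPKM, against 36.8 to 177), and Mtap, a neighbour of Cdkn2a on chromosome 4, was lowest there as well (7.11 against 16.9 to 32.9). Eya2, a transcriptional coactivator, and Ank1, an ankyrin, were highest in tumour 9, at 92.2 FPKM against 0.77 to 21.3 and at 146 against 3.83 to 30.5. Tumour 6, highest in neuronal genes, also had the highest level of the immunoglobulin gene Ighg2c (260 FPKM, against 2.24 to 50.3) and of Jchain, the joining chain of antibodies (30.6 against 1.96 to 22.5).

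Most chromosomes differed little in median level between tumours. Distances of genes from their median over the tumours were taken, and each tumour's median distance over all genes was subtracted. The median of a chromosome's genes then exceeded 0.2 log2 units in 2 of 220 combinations of tumour and chromosome. Both were on chromosome 8, with 492 genes, at 0.36 in tumour 4 and 0.25 in tumour 2. There 85.6% and 69.5% of the genes lay above the tumour's median distance. The next largest value was -0.18, for chromosome 14 in tumour 7, an LSL/LSL tumour, where 18.35% of 267 genes lay above. Tumours 4 and 2 are the 2 LSL/+ tumours. Both share a title range with tumours 1 and 3, whose values for chromosome 8 were -0.01 and -0.06. In the other LSL/LSL tumours these were between -0.13 and 0.15. The highest was that of tumour 7, where 66.7% of the genes of chromosome 8 lay above, near the 69.5% of tumour 2. DNA was not measured, and the allele, the tumour and any copy number cannot be told apart.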
